A study of Mus musculus with 13 samples.

Results

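Collagens are the main structural proteins of the arterial wall, and each molecule is wound from 3 polypeptide chains, which can be products of the same gene or of different genes. The family of collagen chain genes was taken by symbol from the table of gene counts, as every gene named Col, number, a, number, except Col2a1 and Col10a1. This gave 42 of the 56953 genes in the table, and 39 of them had enough counts to be tested among 18055 genes. The 3 chains that were not tested were Col25a1, Col17a1 and Col26a1, which had at most 4, 3 and 2 counts in any library. The chains were grouped as 10 fibrillar chains, 6 basement membrane chains, 9 chains of the fibril-associated collagens (FACIT) and 17 others, of which 14 were tested. No chain passed an adjusted p of 0.05 in edgeR in any of 10 comparisons among the groups, and 0% of all genes tested did. At an unadjusted p under 0.05 in edgeR there were between 0 and 12 of 39 chains per comparison, where between 1.31% and 14.7% of all genes had such a p. The comparison with 12 chains was auranofin against atorvastatin (4.4% of all genes). There DESeq2 called 1 chain at an adjusted p of 0.05, among 5 of all genes. It called no chain in the other comparisons and limma called 0, so levels, spreads and fitted differences are described.

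Fibrillar collagens (types I, III, V, XI, XXIV and XXVII) form the rope-like fibrils that give an artery its tensile strength, with types I and III as the bulk of the wall's fibrils and type V as a minor partner that sets fibril width. Type IV chains form the sheet-like network of basement membranes around smooth muscle cells and under the endothelium. FACIT chains sit on the surface of fibrils, type VI makes beaded filaments near cells, types XV and XVIII carry sugar chains at basement membranes, and type VIII is a short-chain collagen made by vascular cells. In atherosclerotic plaques, smooth muscle cells and fibroblasts lay down the collagen of the fibrous cap.

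All 13 libraries came from whole aortas of ApoE-/- mice, which lack apolipoprotein E and develop atherosclerosis, and a Western diet was fed for 16 weeks, starting at an age of 6 weeks. The 4 groups were randomized. The WD group (5 libraries) had the diet alone, the auranofin group (3 libraries, AUR) also had the gold compound auranofin at 3 mg/kg/day, the atorvastatin group (3 libraries, ATV) had the statin atorvastatin at 10 mg/kg/day, and the combination group (2 libraries, COMBO) had both drugs at these doses. There was no group on ordinary diet and none with intact ApoE, so every comparison is between mice that carry the deletion and ate the diet. The labels do not tie libraries to single animals, so p-values measure only the spread between these samples.

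The libraries held 19703683 to 26079566 counts assigned to genes. Levels are given as CPM, counts scaled to a common library size with edgeR's TMM factors (its CPM). The libraries WD 2 and AUR 2 stood apart from the rest in their TMM factors, 0.639 and 0.629, where the others were between 0.801 and 1.23. Mitochondrial genes held 38.8% of counts in AUR 2, 26.9% in WD 2, 24.2% in WD 5 and 24.0% in AUR 1. In the others they held between 9.36% and 21.1%. WD 2 and AUR 2 were the 2 lowest libraries for 16 of the 39 tested chains. AUR 2 also had the highest summed level of 8 endothelial markers, 2561 CPM, and of 7 brown adipocyte markers, 2627 CPM. The tissue label was checked against contractile smooth muscle markers: Myh11, the smooth muscle myosin, was between 745 and 5549 CPM, and Acta2, smooth muscle actin, between 4741 and 22512 CPM. In whole tissue, fewer cells of a type and less RNA per cell cannot be told apart.

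Collagen chains made up between 0.254% (AUR 2) and 1.48% (ATV 1) of a library's counts. With mitochondrial genes taken out of the total, the share was between 0.414% and 1.69%. The widest 95% Wilson interval of these shares was 0.01 percentage points, which covers counting error only. The summed level of all 42 chains was 10588, 6451, 9808, 8545 and 7392 CPM in the WD libraries, 6258, 4039 and 8661 CPM with auranofin, 12457, 12361 and 9269 CPM with atorvastatin and 10204 and 8828 CPM with both drugs. The lowest sum was in AUR 2 and the highest in ATV 1, and each of the 3 other groups overlapped the WD range. Fibrillar chains supplied between 48.2% (WD 3) and 68.4% (WD 2) of the collagen counts.

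Levels were also divided by the length of all annotated exons of a gene joined together, which can exceed that of the transcript in use. Ranks of genes per kilobase (kb) are therefore approximate. On this measure Col3a1 (the type III chain) was highest with a mean of 187 CPM per kb over the 13 libraries. It was followed by Col1a1 (147) and, ahead of the second type I chain, by Col18a1, a basement membrane proteoglycan collagen whose end fragment is endostatin, at 135 CPM per kb. Col1a2, the second type I chain, reached 115, the type IV chain Col4a1 95.1 and the type VI chain Col6a1 87.3 CPM per kb. The joined exons of Col1a2 were 12.4 kb long, against 7.02 kb for Col18a1 and 6.56 kb for Col1a1. Without division by length, Col1a2 was above Col18a1, at means of 1432 and 946 CPM. The type V chains Col5a2 and Col5a1 were lower, at 33.2 and 28.5 CPM per kb. The map of chain levels relative to their own mean shows how libraries differed within groups. ATV 2 held 34 of the 39 tested chains above the chain's own mean, ATV 1 held 33 and WD 1 held 31. The highest value of a chain was in ATV 2 for 18 chains and in ATV 1 for 9, and the lowest was in AUR 2 for 15 chains, in WD 2 for 9 and in WD 5 for 9.

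**Figure D1:**
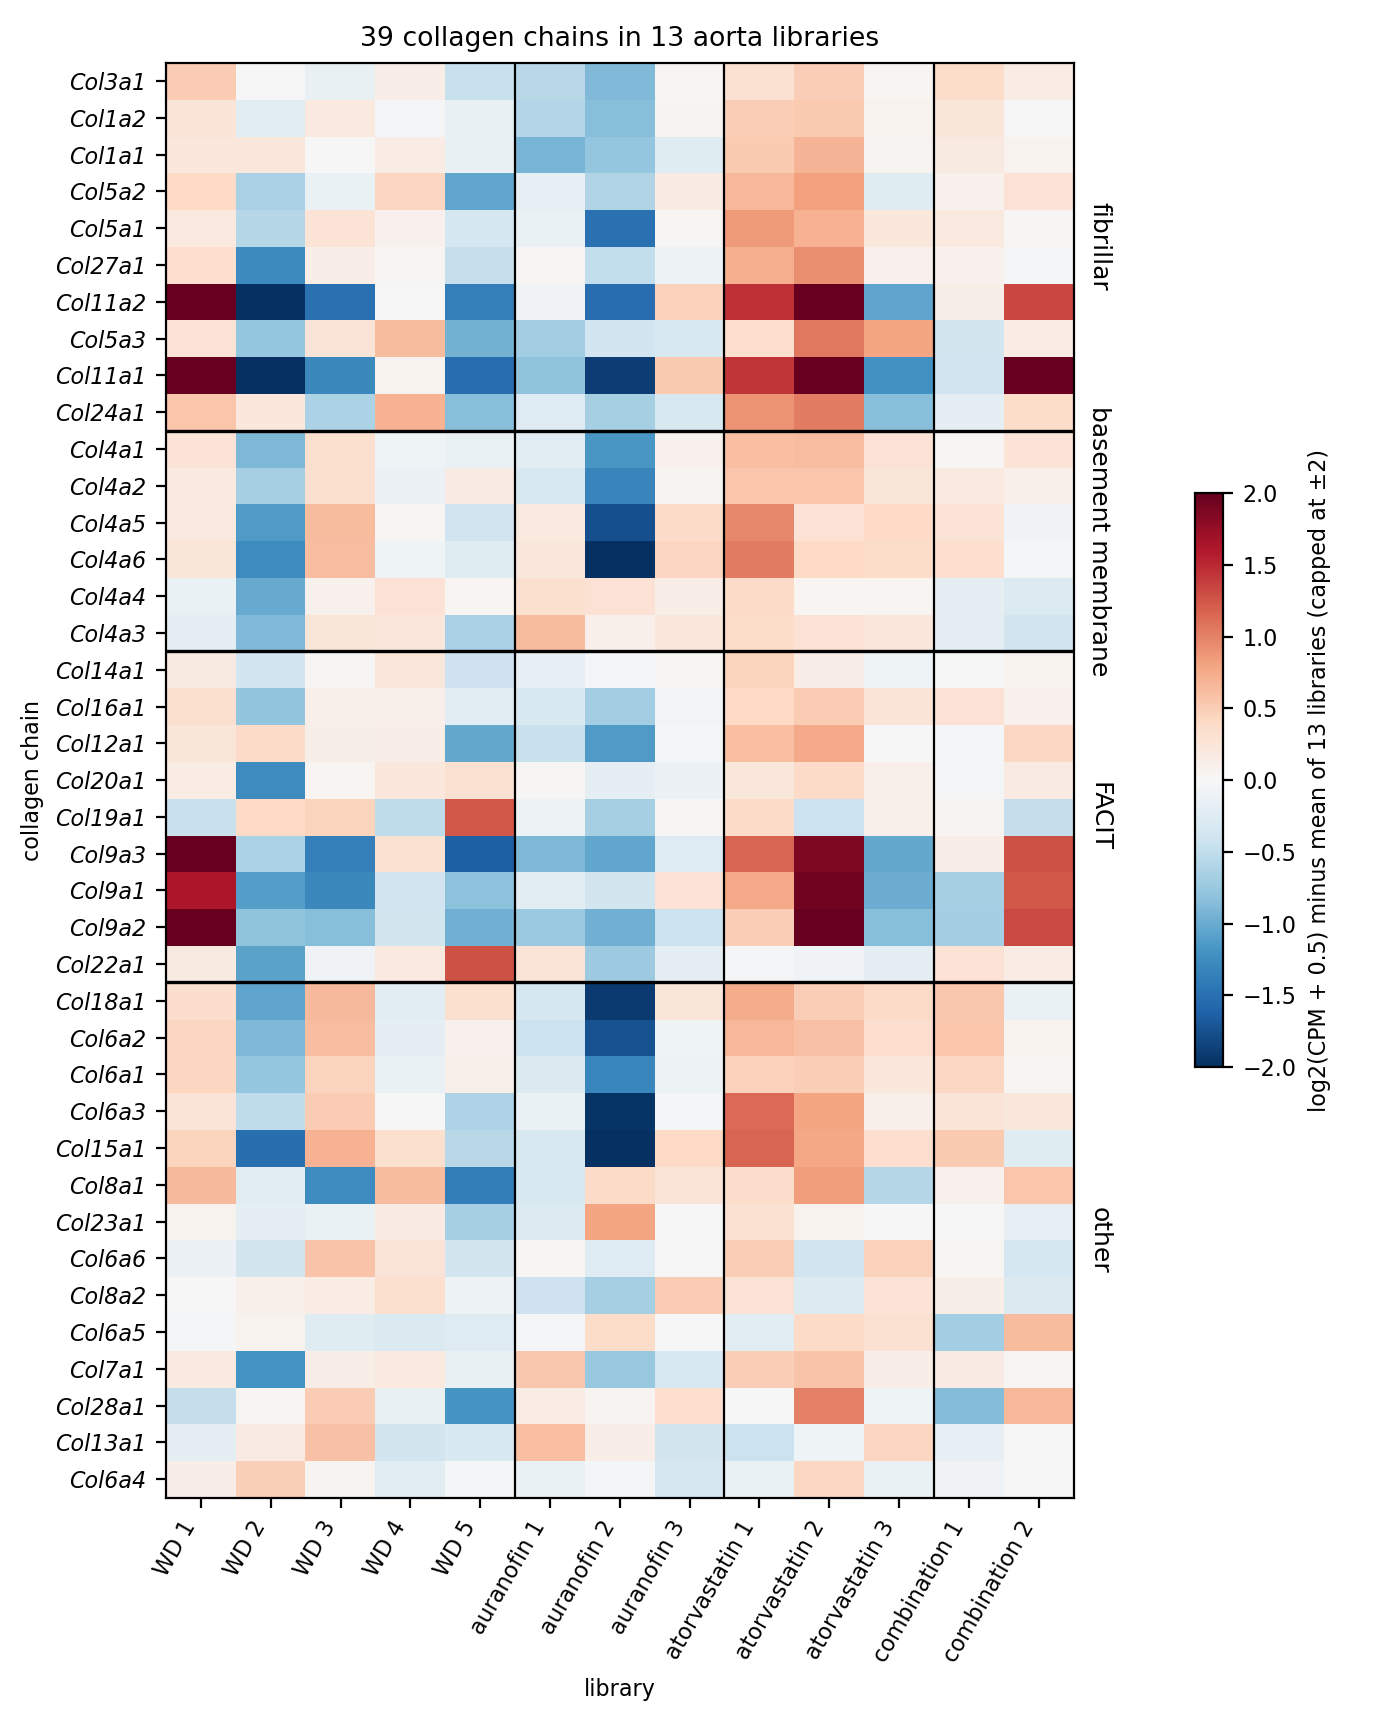
Level of each of the 39 tested collagen chains (rows, ordered by class) in each of the 13 libraries (columns, by group), drawn as log2(CPM + 0.5) minus the chain's mean over the 13 libraries, with the colour scale stopping at 2 in each direction. WD 2 and AUR 2 are the 2 lowest libraries for 16 chains, and ATV 1 and ATV 2 are high for 33 and 34 chains.

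The upstream sequence of Col3a1 is shown because this was the chain with the highest level in CPM and per kb. The run holds the 250 bases before the RefSeq start on the forward strand at chr1:45311288-45311537 in GRCm38.p6, with a TATAAA match in capitals.
Col3a1 upstream: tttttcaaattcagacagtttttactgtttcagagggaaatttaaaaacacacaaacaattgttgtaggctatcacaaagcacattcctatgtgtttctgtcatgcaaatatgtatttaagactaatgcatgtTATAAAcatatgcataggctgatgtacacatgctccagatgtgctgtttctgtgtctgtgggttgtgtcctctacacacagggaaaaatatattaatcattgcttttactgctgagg
Its GC content is 35.2%. TATAAA, searched on both strands in windows of 250 bases before to 50 after a start, was present in 4 of 37 collagen windows (10.8%), namely those of Col3a1, Col11a2, Col13a1 and Col17a1, and in 13.6% of all 32851 RefSeq windows. CCAAT was present in 13 collagen windows (35.1%) and 37.4% of all windows, and GGGCGG in 23 collagen windows (62.2%) and 35.7% of all windows. The windows covered 34 of the 42 chains.

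Among the fibrillar chains, the type I and type III chains were lower in the auranofin group than with the diet alone in their means and higher in the atorvastatin group, and none of these differences passed the adjusted test. Col1a1 (ENSMUSG00000001506), which supplies most chains of the type I trimer, was at 1067, 1082, 931, 1028 and 833 CPM in the WD libraries and at 485, 540.1 and 785 CPM with auranofin. It was at 1323, 1478 and 961 CPM with atorvastatin and 1044 and 966 CPM with both drugs. All 3 auranofin libraries were below all 5 WD libraries, while the atorvastatin and combination libraries overlapped the WD range. Auranofin and WD differed by −0.71 (SE 0.25) on the log2 scale, with an unadjusted p of 0.0137 and a Benjamini-Hochberg adjusted p of 0.671 in edgeR. Without each library in turn, this difference was between −0.95 (without AUR 3) and −0.58 (without AUR 1). With atorvastatin the difference from WD was 0.34 (SE 0.24), and with both drugs it was 0.02 (SE 0.28).

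Col1a2 (ENSMUSG00000029661), the other chain of type I collagen, was at 1659, 1195, 1591, 1354 and 1258 CPM in the WD libraries, 928, 768 and 1447 CPM with auranofin, 1950.2, 1986 and 1459.8 CPM with atorvastatin and 1633 and 1389 CPM with both drugs. AUR 3 lay inside the WD range and the other 2 auranofin libraries below it. Its differences from WD were −0.43 (SE 0.27) with auranofin, 0.35 (SE 0.27) with atorvastatin and 0.10 (SE 0.31) with both. The auranofin difference was −0.25 without AUR 2 and −0.73 without AUR 3. The ratio of Col1a1 to Col1a2 was between 0.523 and 0.906 over the 13 libraries, so the 2 chains kept within a narrower range than either level. Col3a1 (ENSMUSG00000026043), the type III chain of stretchable tissues, was at 2516, 1771, 1609, 1941 and 1305 CPM in the WD libraries, 1214, 959 and 1823 CPM with auranofin, 2199, 2489.7 and 1829 CPM with atorvastatin and 2280.1 and 1964 CPM with both drugs. The groups overlapped, with 2 of the 3 auranofin libraries below the WD range and every atorvastatin and combination library inside it. Its differences from WD were −0.46 (SE 0.30), 0.25 (SE 0.29) and 0.21 (SE 0.33), in the same order, with edgeR's adjusted p at 0.674, 0.636 and 0.997. The auranofin difference was −0.27 without AUR 2 and −0.75 without AUR 3, and the atorvastatin difference was between 0.15 (without WD 5 or ATV 2) and 0.38 (without WD 1).

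The minor fibrillar chains gave the smallest unadjusted p of any chain between atorvastatin and WD. Col27a1, the long chain of a thin-fibril collagen, was at 38.0, 12.1, 32.7, 30.4 and 21.7 CPM in the WD libraries, 30.3, 21.1 and 27.8 CPM with auranofin, 49.6, 57.4 and 31.9 CPM with atorvastatin and 31.8 and 29.2 CPM with both drugs. ATV 1 and ATV 2 were above every other library and ATV 3 was inside the WD range. The difference of atorvastatin from WD was 0.78 (SE 0.31), with an unadjusted p of 0.0257 and an adjusted p of 0.340 in edgeR. Col5a3, the least abundant type V chain, was at 11.6, 5.34, 11.6, 15.0 and 4.72 CPM in the WD libraries, 5.67, 7.18 and 7.67 CPM with auranofin, 12.2, 20.3 and 16.8 CPM with atorvastatin and 7.28 and 10.6 CPM with both drugs. ATV 2 and ATV 3 were above the WD range and ATV 1 was inside it. The difference was 0.76 (SE 0.35), with an unadjusted p of 0.0473 and an adjusted p of 0.340 in edgeR.

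Col5a1 and Col5a2, the main type V chains, ranged from 80.4 to 411 CPM and from 145 to 528 CPM. Their ratio was between 0.409 and 1.23. Atorvastatin differed from WD by 0.65 (SE 0.32) for Col5a1, with an unadjusted p of 0.0634 in edgeR and 0.045 in DESeq2, and adjusted p of 0.340 and 0.271. Col24a1, another minor fibrillar chain, ranged from 0 to 1.33 CPM.

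**Figure D2:**
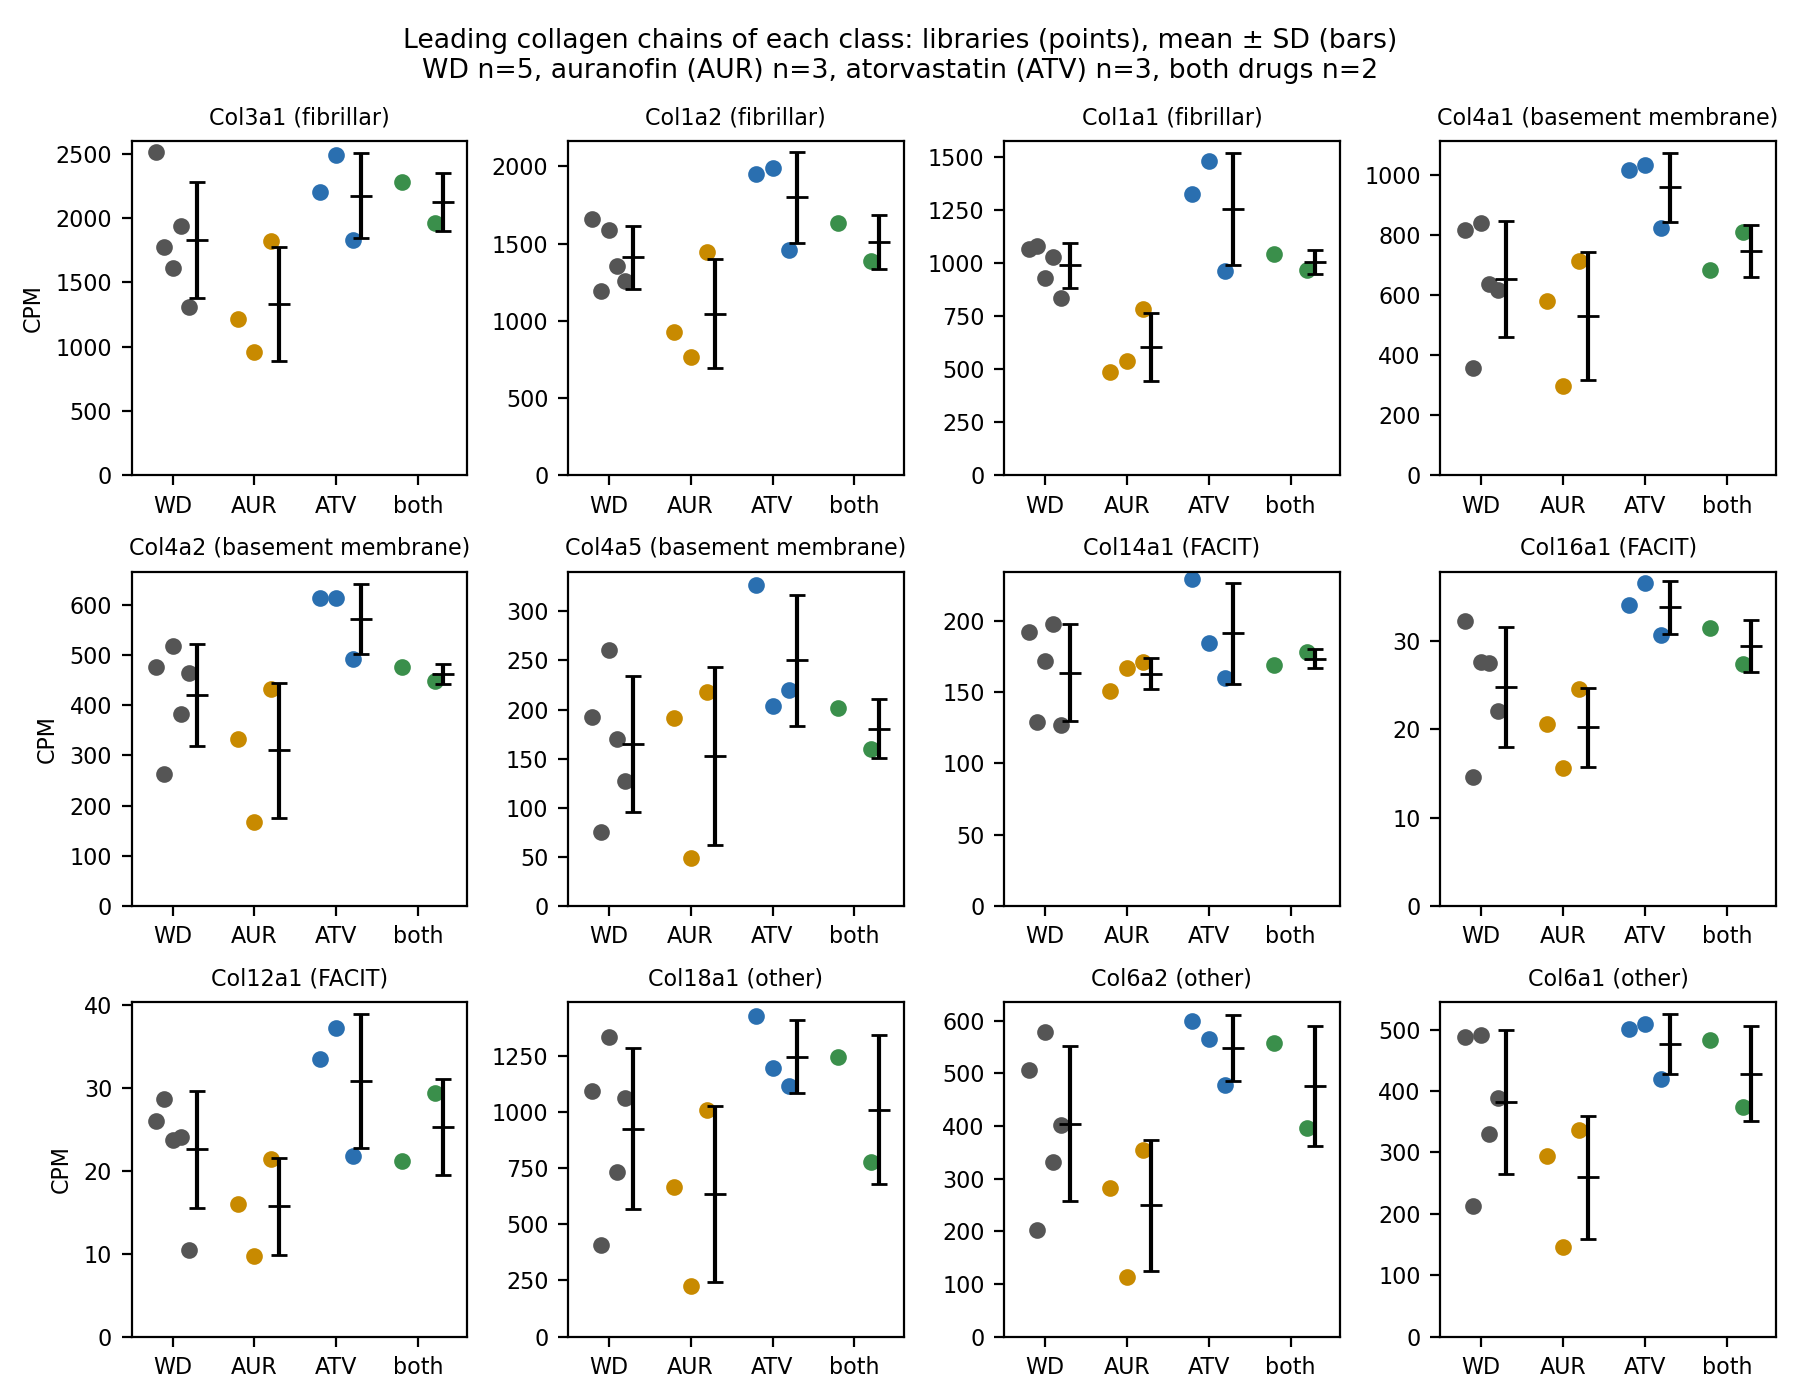
CPM of 12 leading collagen chains (3 with the highest mean level in each class) in every library, with points for libraries and a bar with whiskers for each group's mean and SD (WD n = 5, AUR n = 3, ATV n = 3, COMBO n = 2). For Col1a1 the 3 auranofin points lie below the 5 WD points, and for the other 11 chains the auranofin and WD points overlap.

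Type IV chains are encoded by 3 pairs of genes that lie head to head, and both genes of a pair are transcribed outward from the same stretch of DNA. The sequences between or around their starts are shown because the results compare the 2 chains of each pair. The annotated first exons of Col4a1 and Col4a2 overlap by 22 bases in GENCODE M21 (GRCm38). The starts of Col4a4 and Col4a3 leave a gap of 126 bases, and those of Col4a6 and Col4a5 a gap of 1333 bases. The runs below are from RefSeq windows of GRCm38.p6, with capitals for GGGCGG in the first and CCAAT in the third; no searched motif was found in the others.
Col4a1 and Col4a2 shared first-exon bases, chr8:11312805-11312826, forward strand: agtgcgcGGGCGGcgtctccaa
Between Col4a4 and Col4a3, chr1:82586850-82586920, forward strand: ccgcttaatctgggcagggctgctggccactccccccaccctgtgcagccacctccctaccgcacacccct
Col4a5 upstream, chrX:141475169-141475369, forward strand: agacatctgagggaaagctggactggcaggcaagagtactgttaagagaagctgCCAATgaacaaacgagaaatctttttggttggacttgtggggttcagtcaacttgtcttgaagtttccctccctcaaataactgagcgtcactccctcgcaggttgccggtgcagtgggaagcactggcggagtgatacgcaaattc
Col4a6 upstream, chrX:141474096-141474326, reverse strand: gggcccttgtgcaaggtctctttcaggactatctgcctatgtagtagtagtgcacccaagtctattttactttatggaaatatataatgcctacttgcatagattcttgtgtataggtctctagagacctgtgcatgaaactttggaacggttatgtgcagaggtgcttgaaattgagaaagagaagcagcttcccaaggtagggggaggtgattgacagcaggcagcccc
The shared bases of the first pair have a GC content of 72.7%, and the 71 bases shown between Col4a4 and Col4a3 one of 69.0%. These 71 bases run from the GENCODE start of Col4a4 to the RefSeq start of Col4a3. They are therefore fewer than the 126 bases between the 2 GENCODE starts.

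Col4a1 (ENSMUSG00000031502), with Col4a2 the ubiquitous chain of vascular basement membranes, was at 816, 359, 840.0, 637 and 616 CPM in the WD libraries, 579.6, 299 and 714 CPM with auranofin, 1017, 1035 and 826 CPM with atorvastatin and 686 and 809.5 CPM with both drugs. WD 2 and AUR 2 were lowest, and the atorvastatin libraries overlapped the WD range only through ATV 3. Col4a2 (ENSMUSG00000031503) was at 476, 262, 518, 382 and 463 CPM in the WD libraries, 332, 166 and 432 CPM with auranofin, 612, 613 and 492 CPM with atorvastatin and 476 and 447 CPM with both drugs. The level of Col4a1 spanned 3.47-fold and that of Col4a2 3.68-fold over the 13 libraries, whereas the ratio of Col4a1 to Col4a2 stayed between 1.33 and 1.81, a span of 1.36-fold. The differences from WD were −0.30 (SE 0.33) for Col4a1 and −0.44 (SE 0.31) for Col4a2 with auranofin, and 0.55 (SE 0.32) and 0.45 (SE 0.30) with atorvastatin. Without AUR 2 the auranofin differences were −0.0156 for Col4a1 and −0.14 for Col4a2, and without AUR 3 they were −0.57 and −0.75; for Col4a1 it was −0.46 without WD 2. None passed the adjusted or the unadjusted threshold in edgeR.

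Col4a5 (ENSMUSG00000031274), an X-linked chain that pairs with Col4a6 in the basement membranes of smooth muscle, was at 192, 75.8, 261, 169.8 and 127 CPM in the WD libraries, 191, 49.1 and 218 CPM with auranofin, 327, 204 and 219.9 CPM with atorvastatin and 202 and 159.6 CPM with both drugs. WD 2 and AUR 2 were again lowest, and every group overlapped WD. Its difference between auranofin and WD was −0.11 (SE 0.45), and it was 0.14 without WD 2 and AUR 2, so its sign turned. It was 0.31 without AUR 2 alone and −0.45 without AUR 3. Col4a6, the partner, ranged from 24.5 to 214 CPM. The 2 chains spanned 6.65-fold and 8.74-fold, and their ratio only 1.38-fold, from 1.45 to 2.00.

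The third pair did not have its lowest values in AUR 2. Col4a3, with Col4a4 a chain of specialised basement membranes such as those of the kidney glomerulus, was at 12.3, 7.45, 16.8, 16.7 and 8.87 CPM in the WD libraries, 22.4, 15.3 and 16.8 CPM with auranofin, 18.5, 17.5 and 16.5 CPM with atorvastatin and 12.4 and 10.8 CPM with both drugs. AUR 1 was above every other library, and AUR 2 and both combination libraries were inside the WD range. Col4a4 was at 21.4, 11.5, 25.0, 28.9 and 24.3 CPM in the WD libraries, 29.7, 28.9 and 26.0 CPM with auranofin, 30.8, 24.3 and 24.3 CPM with atorvastatin and 20.5 and 19.5 CPM with both drugs. AUR 1 and AUR 2 lay above the WD range for it, ATV 1 was highest, and AUR 3 was inside that range. AUR 2 was the lowest of all libraries for Col4a1, Col4a2, Col4a5 and Col4a6. The ratio of Col4a1 to Col4a3 was between 38.1 and 69.4 in the WD libraries and was 25.9, 19.5 and 42.5 in the auranofin libraries. Of the exon bases of Col4a3, 5.65% overlap another gene, and libraries that do not keep strand cannot tell reads of the 2 genes apart there.

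For Col4a3 the auranofin group differed from WD by 0.55 (SE 0.26), with an unadjusted p of 0.0571 in edgeR. The atorvastatin group differed by 0.49 (SE 0.26) and the combination group by −0.10 (SE 0.30), so each drug alone gave a positive estimate and both together did not. The interaction of the 2 drugs, which asks whether the effect of one differs with the other, was −1.14 (SE 0.43) on the log2 scale for Col4a3. Its unadjusted p was 0.0197 and its Benjamini-Hochberg adjusted p 0.791 in edgeR. Col4a3 was the only 1 of 39 chains with an unadjusted interaction p under 0.05, where 3.1% of all genes had such a p and 0.997% were lower with such a p. Over the family the interaction was fitted positive for 17 chains (52.3% of all genes). The number of such chains was 0 without AUR 1 and 2 without WD 2, WD 4 or COMBO 2. For Col4a4 the interaction was −0.75 (SE 0.39), with an unadjusted p of 0.0754. The ratio of Col4a4 to Col4a3 spanned 2.06-fold, from 1.33 to 2.74, with the highest value in WD 5.

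**Figure D3:**
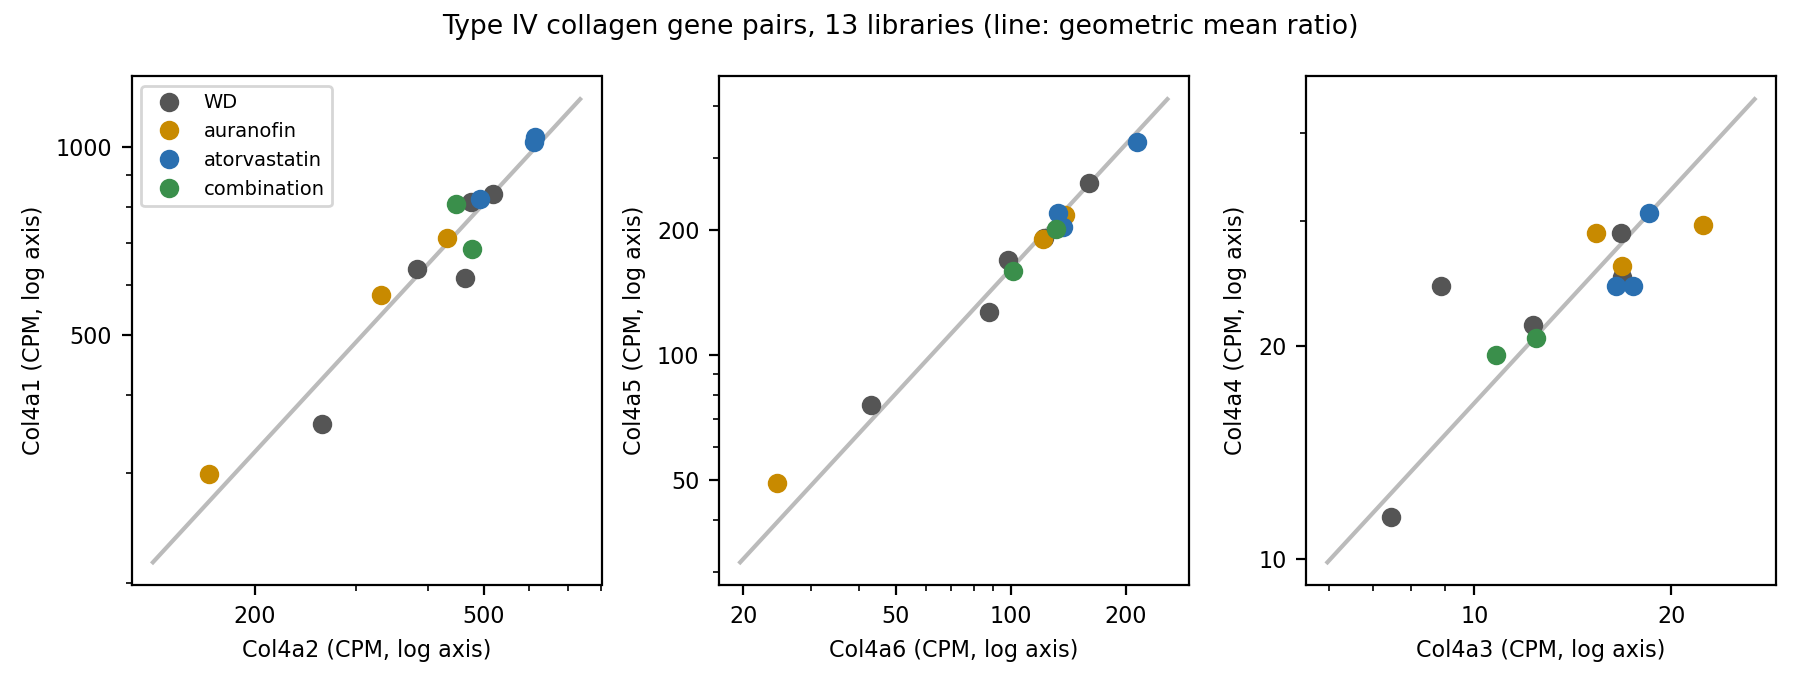
CPM of the 2 chains of each type IV pair plotted against each other on log axes, with 1 point per library coloured by group and a line at the geometric mean of the ratio. Points of Col4a1 and Col4a2 and of Col4a5 and Col4a6 lie along the line with AUR 2 at the low end, and the points of Col4a4 and Col4a3 span 2.69-fold and 3.00-fold with AUR 2 near the upper end for Col4a4.

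Among the FACIT chains, Col14a1 spanned 1.81-fold over the 13 libraries, Col16a1 2.52-fold and Col12a1 3.82-fold. Col14a1 (ENSMUSG00000022371), which binds the surface of type I fibrils, was at 192, 129, 172, 198 and 127 CPM in the WD libraries, 151, 167 and 171 CPM with auranofin, 229, 185 and 159.6 CPM with atorvastatin and 169 and 178 CPM with both drugs. Its groups overlapped throughout, and AUR 2 was not low. The group means were 163 ± 33.9 CPM in WD (SD, n = 5), 163 ± 10.7 CPM with auranofin (SD, n = 3), 191 ± 35.3 CPM with atorvastatin (SD, n = 3) and 173 ± 6.56 CPM with both (SD, n = 2). The difference of auranofin from WD was −0.00496 with an SE of 0.21, and it took the other sign with DESeq2's size factors, where it was 0.00605.

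Col16a1 (ENSMUSG00000040690), a minor FACIT chain of several fibril types, was at 32.2, 14.5, 27.6, 27.5 and 22.0 CPM in the WD libraries, 20.6, 15.5 and 24.5 CPM with auranofin, 34.0, 36.6 and 30.7 CPM with atorvastatin and 31.5 and 27.3 CPM with both drugs. The lowest were WD 2 and AUR 2, and the atorvastatin libraries lay near or above the upper end of the WD range. Atorvastatin differed from WD by 0.45 (SE 0.23) and the combination by 0.25 (SE 0.27), which was 0.10 without WD 2 and 0.13 without COMBO 1. Col12a1 (ENSMUSG00000032332), a long FACIT chain of tissues under load, was at 26.0, 28.7, 23.8, 24.1 and 10.5 CPM in the WD libraries, 16.0, 9.75 and 21.4 CPM with auranofin, 33.5, 37.3 and 21.8 CPM with atorvastatin and 21.2 and 29.4 CPM with both drugs. WD 5 lay well below the other WD libraries, at a level near that of AUR 2. The difference of auranofin from WD was −0.52 (SE 0.33) and that of atorvastatin 0.45 (SE 0.32). The first was −0.27 without AUR 2 and −0.80 without AUR 3, and the second was 0.27 without WD 5 and 0.30 without ATV 2.

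The remaining FACIT chains were rare. Col19a1 was at 1.32, 2.76, 2.86, 1.24 and 5.38 CPM in the WD libraries, 1.79, 1.05 and 2.01 CPM with auranofin, 2.72, 1.33 and 2.14 CPM with atorvastatin and 2.07 and 1.28 CPM with both drugs. WD 5 was highest, and all groups overlapped. Its difference between the combination and WD, −0.68 (SE 0.56), had the smallest unadjusted p of any chain in that comparison, 0.245 in edgeR. It was −0.28 without WD 5, −0.37 without COMBO 2 and −1.09 without COMBO 1. Col22a1, known from muscle-tendon junctions, was at 0.680, 0, 0.490, 0.694 and 2.03 CPM in the WD libraries, 0.751, 0.132 and 0.410 CPM with auranofin, 0.529, 0.494 and 0.420 CPM with atorvastatin and 0.777 and 0.661 CPM with both drugs. WD 2 had 0 counts, which allows up to 0.180 CPM (3 counts), and WD 5 stood above all others. Its difference between atorvastatin and WD was −0.69 (SE 0.81), and it was −0.00251 without WD 5. Col20a1 ranged from 1.38 to 5.35 CPM, with its lowest value in WD 2.

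Type IX and type XI chains, which are best known from cartilage, varied widely between libraries of the same group. They were chosen for description after that spread was seen. Col9a2 was at 5.44, 0.0601, 0.0409, 0.256 and 0 CPM in the WD libraries, 0.0834, 0 and 0.223 CPM with auranofin, 0.870, 4.21 and 0.0420 CPM with atorvastatin and 0.111 and 1.94 CPM with both drugs. The 0 counts in WD 5 and AUR 2 allow up to 0.152 and 0.197 CPM. Col9a1 was at 3.54, 0.120, 0.0409, 0.511 and 0.254 CPM in the WD libraries, 0.626, 0.527 and 1.12 CPM with auranofin, 1.74, 4.56 and 0.168 CPM with atorvastatin and 0.333 and 2.65 CPM with both drugs. WD 1, ATV 2, COMBO 2 and ATV 1 held the 4 highest values of both chains.

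Col11a1, the fibrillar type XI chain that sets the core of cartilage fibrils, was at 9.56, 0, 0.450, 1.94 and 0.304 CPM in the WD libraries, 0.834, 0.132 and 2.83 CPM with auranofin, 5.75, 21.0 and 0.504 CPM with atorvastatin and 1.26 and 8.64 CPM with both drugs. WD 2 had 0 counts of it, which allows up to 0.180 CPM. Col11a2, its partner, was at 28.3, 0.601, 1.96, 6.47 and 2.18 CPM in the WD libraries, 6.05, 1.91 and 8.97 CPM with auranofin, 18.5, 44.2 and 2.81 CPM with atorvastatin and 6.99 and 17.0 CPM with both drugs. The same 4 libraries were again the 4 highest for both chains, and they came from 3 of the 4 groups. Col9a3 ranged from 0.0507 to 6.69 CPM, and 6.07% of its exon bases overlap the gene Tcfl5.

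The summed level of 10 cartilage markers moved with these chains: it was 324, 50.2, 80.0, 135 and 81.5 CPM in the WD libraries, 64.7, 41.6 and 163 CPM with auranofin, 287, 492 and 67.6 CPM with atorvastatin and 139 and 185 CPM with both drugs. WD 1, ATV 1, ATV 2 and COMBO 2 were again highest. Acan, the large proteoglycan of cartilage, was at 65.0, 6.55, 24.5, 22.6 and 14.8 CPM in the WD libraries, 14.7, 4.61 and 33.8 CPM with auranofin, 72.6, 83.2 and 16.8 CPM with atorvastatin and 39.8 and 48.5 CPM with both drugs. Of 9 tested cartilage markers, 0 were fitted higher with auranofin than with the diet alone (46.4% of all genes) and 7 were fitted higher with atorvastatin (49.2% of all genes). Matn1, a cartilage matrix protein, was the marker too low to be tested. The part of these markers' cells in the levels of type IX and XI chains was not tested.

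**Figure D4:**
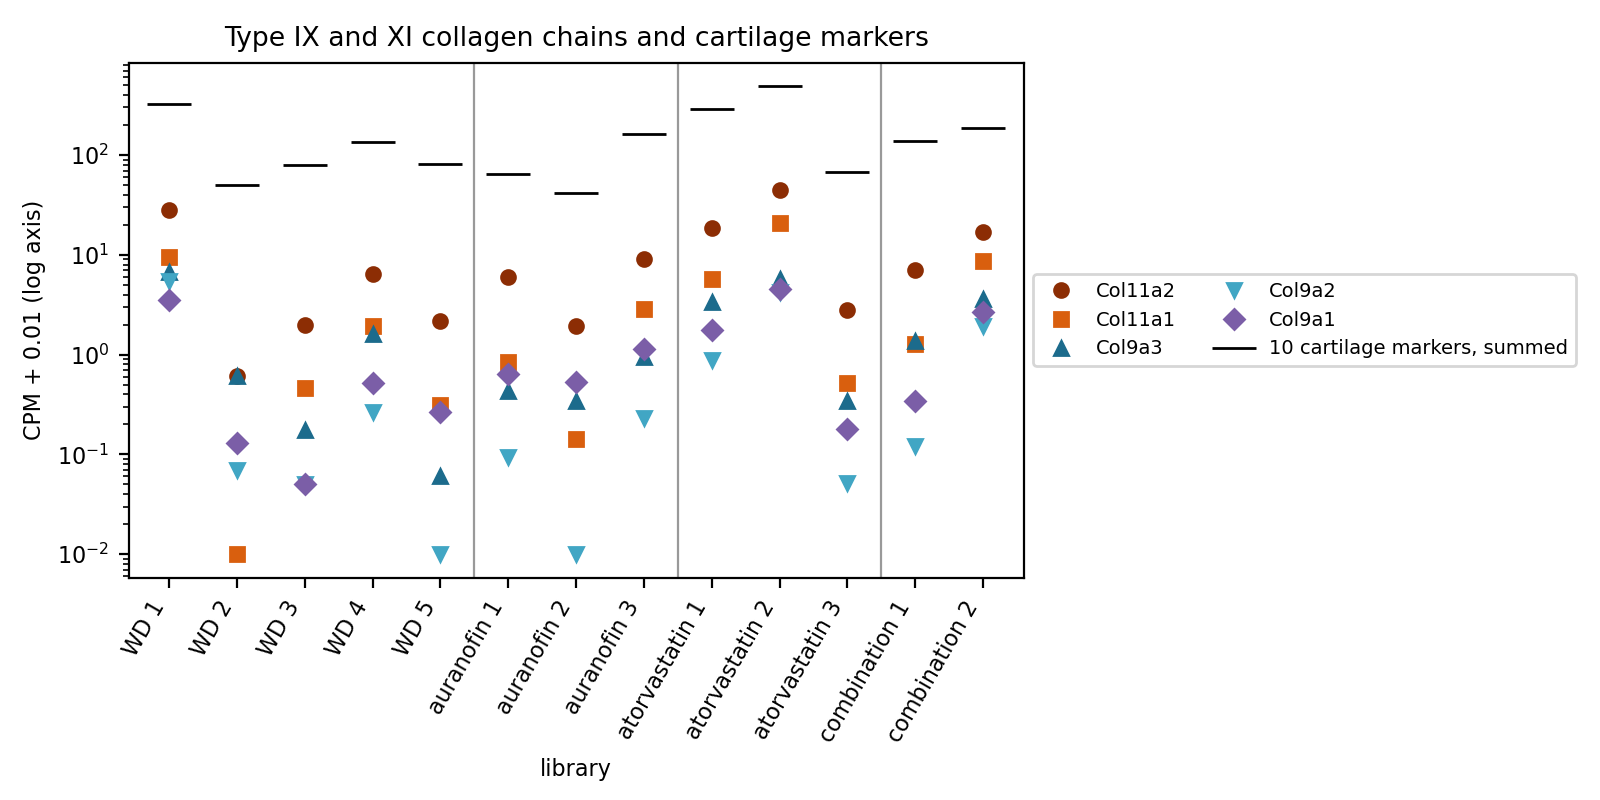
Type IX and type XI chains (CPM + 0.01 on a log axis) and the summed CPM of 10 cartilage markers in each of the 13 libraries. WD 1, ATV 1, ATV 2 and COMBO 2 are high for the chains and for the markers, and Col9a2 is between 0.042 and 4.21 CPM within the atorvastatin group alone.

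Outside these 3 classes, Col18a1 (ENSMUSG00000001435) was at 1094, 409.6, 1333, 734 and 1062 CPM in the WD libraries, 668, 225 and 1007 CPM with auranofin, 1429, 1197 and 1114 CPM with atorvastatin and 1245 and 776 CPM with both drugs. WD 2 and AUR 2 were the 2 lowest libraries, and every group overlapped WD. The differences from WD were −0.55 (SE 0.46) with auranofin, 0.43 (SE 0.45) with atorvastatin and 0.13 (SE 0.51) with both drugs, the last of which was −0.06 without WD 2 and AUR 2. The auranofin difference was −0.15 without AUR 2 and −1.04 without AUR 3, and the atorvastatin difference was 0.24 without WD 2. The combination difference was −0.26 without COMBO 1 and 0.43 without COMBO 2. Col15a1, the related type XV chain of muscle and vessel basement membranes, ranged from 40.0 to 369 CPM and was also lowest in AUR 2 and WD 2.

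The type VI chains Col6a1, Col6a2 and Col6a3 assemble together. Col6a2 (ENSMUSG00000020241) was at 507, 202, 578, 332 and 402 CPM in the WD libraries, 281, 113 and 354 CPM with auranofin, 599, 565 and 478 CPM with atorvastatin and 557 and 396 CPM with both drugs. Col6a1 (ENSMUSG00000001119) was at 489, 212, 492, 329.5 and 388 CPM in the WD libraries, 295, 146 and 336 CPM with auranofin, 501, 509 and 419.5 CPM with atorvastatin and 483 and 373 CPM with both drugs. Both were lowest in AUR 2 and next lowest in WD 2, and the auranofin libraries overlapped the WD libraries. With auranofin, Col6a2 differed from WD by −0.70 (SE 0.39) and Col6a1 by −0.56 (SE 0.32). Without AUR 2 these were −0.35 and −0.28. With atorvastatin the differences were 0.44 (SE 0.38) and 0.32 (SE 0.32), and without WD 2 they were 0.27 and 0.17. Col6a3, the large chain, ranged from 55.9 to 478 CPM, and atorvastatin differed from WD by 0.74 (SE 0.40). The ratio of Col6a1 to Col6a2 was between 0.835 and 1.30, and that of Col6a3 to Col6a1 between 0.364 and 0.956, with AUR 2 and WD 5 at the low end of the second.

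Col6a5 and Col6a6, type VI chains that can take the place of Col6a3, were named by their rank in the comparison of the combination with WD. Col6a5 was at 1.97, 2.16, 1.63, 1.57 and 1.62 CPM in the WD libraries, 2.00, 2.77 and 2.01 CPM with auranofin, 1.70, 2.81 and 2.65 CPM with atorvastatin and 1.07 and 3.45 CPM with both drugs. The 2 combination libraries were the lowest and the highest of all 13. Col6a6 was at 7.87, 6.49, 12.9, 10.3 and 6.49 CPM in the WD libraries, 8.72, 7.05 and 8.64 CPM with auranofin, 12.2, 6.46 and 12.0 CPM with atorvastatin and 8.73 and 6.61 CPM with both drugs. Its groups overlapped. The combination differed from WD by 0.33 (SE 0.40) for Col6a5 and −0.20 (SE 0.33) for Col6a6. For Col6a5 it was 0.94 without COMBO 1 and −0.73 without COMBO 2, and for Col6a6 it was −0.42 without COMBO 1, −0.0105 without COMBO 2 and −0.0319 without WD 3. Col6a4 ranged from 0.223 to 0.781 CPM.

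Col23a1, a transmembrane collagen, was at 9.05, 7.51, 7.85, 9.72 and 5.27 CPM in the WD libraries, 7.05, 15.2 and 8.68 CPM with auranofin, 10.7, 9.11 and 8.69 CPM with atorvastatin and 8.62 and 7.65 CPM with both drugs. AUR 2 stood above every other library, where it was lowest for 15 other chains. The difference of auranofin from WD was 0.38 (SE 0.26), and it was −0.00469 without AUR 2 and −0.00535 without WD 2 and AUR 2. Col8a1, the main type VIII chain, ranged from 22.2 to 105 CPM, and Col8a2 from 1.52 to 4.06 CPM. Col7a1, the anchoring fibril chain, ranged from 0.300 to 2.24 CPM, Col28a1 from 0.0507 to 2.01 CPM and the transmembrane chain Col13a1 from 0.189 to 0.918 CPM.

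Set side by side with the WD group, the 3 treated groups gave different pictures over the family. These comparisons share the 5 WD libraries. The chains also share libraries and many were low or high in the same ones, so counts of chains are not counts of separate results. With auranofin, 31 of 39 chains were fitted lower and 8 higher (46.4% of all genes were fitted higher), and the median difference was −0.36 against −0.04 over all genes. By class, 0 of 10 fibrillar and 0 of 9 FACIT chains were fitted higher, with medians of −0.47 and −0.52, against 2 of 6 basement membrane chains with a median of −0.11 and 6 of 14 others with a median of −0.17. Without WD 1, 4 of 10 fibrillar and 3 of 9 FACIT chains were fitted higher, with medians of −0.31 and −0.12. Without AUR 2, 2 fibrillar and 0 FACIT chains were, with medians of −0.26 and −0.27, and 4 of 6 basement membrane chains were, with a median of 0.32. The FACIT count takes in Col14a1 at −0.00496, whose sign turned in 8 alternatives. The only chain with an unadjusted p under 0.05 was Col1a1, 1 of 39 chains, where 6.5% of all genes had such a p and 3.79% were lower with such a p. It was also the only chain whose auranofin and WD libraries did not overlap, lower with auranofin (1.32% of all genes).

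The median of the family was negative under each scaling tried, but its size rested on single libraries. It was −0.07 without AUR 2, −0.16 without WD 1 and −0.62 without AUR 3, and −0.20 without WD 2 and AUR 2. With library totals it was −0.46, where the median of all genes was −0.13. The number of chains fitted higher was 15 without WD 1 and 13 without AUR 2 or without WD 3. The number at an unadjusted p under 0.05 was 0 without AUR 1 or with library totals in place of TMM, 2 without WD 3, WD 4, WD 5 or AUR 2, 4 without WD 2, 6 without AUR 3 and 8 in limma. DESeq2 and limma called 0 chains at an adjusted p of 0.05. The 10 contractile smooth muscle markers summed to 13659 to 28429 CPM in the WD libraries and 15805, 6237 and 16384 CPM with auranofin, with 1 of 10 fitted higher and a median difference of −0.76. Fibroblast markers summed to 2579 to 3695 CPM in the WD libraries and 2700, 3734 and 2908 CPM with auranofin. AUR 2, the lowest library for summed collagen, had the highest fibroblast sum of all libraries. The 8 endothelial markers summed to 615 to 1079.6 CPM in the WD libraries and 1007, 2561 and 791 CPM with auranofin, with 8 of 8 fitted higher. The 7 brown adipocyte markers summed to 135 to 897 CPM and 1191, 2627 and 475 CPM, with 7 of 7 fitted higher, and the 8 adipocyte markers to 370.0 to 1406 CPM and 1662, 3013 and 1229 CPM, with 7 of 8 fitted higher. The 6 markers of T and B cells summed to 2.45 to 8.77 CPM and 6.01, 53.6 and 7.82 CPM, with 6 of 6 fitted higher. All listed striated muscle markers summed to 14.7 to 461 CPM and 12.3, 14.8 and 60.9 CPM, with 1 of the 7 tested fitted higher. The part of any of these in the collagen values was not tested.

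With atorvastatin, 35 of 39 chains were fitted higher than with the diet alone (49.2% of all genes), and the median difference was 0.45 against −0.01 over all genes. All 10 fibrillar and all 6 basement membrane chains were fitted higher, with medians of 0.71 and 0.52, as were 7 of 9 FACIT chains (median 0.45) and 12 of 14 others (median 0.40). Without ATV 2 the counts were 10 fibrillar, 6 basement membrane and 6 FACIT chains, with medians of 0.37, 0.50 and 0.08. Chains with an unadjusted p under 0.05 were 2 of 39, both higher, Col27a1 and Col5a3, where 14.7% of all genes had such a p and 4.19% were higher with such a p. There was no chain whose atorvastatin libraries all lay above or all below the WD libraries, where 2.83% of all genes were higher and 2.87% lower in this way. The median was between 0.31 (without ATV 2) and 0.54 (without ATV 3), positive under each scaling tried, and 0.59 with library totals in place of TMM, where the median of all genes itself was 0.16. The number at an unadjusted p under 0.05 was 8 without WD 1, 4 without WD 3 or ATV 3, 0 without WD 5 or ATV 2 and 1 without WD 2, ATV 1 or any of AUR 1, AUR 3, COMBO 1 and COMBO 2. It was 5 in limma and 0 with library totals, and the number fitted lower, 4, was 2 without WD 2. Of 10 fibroblast markers, which summed to 2579 to 3695 CPM in the WD and 2407 to 3243 CPM in the atorvastatin libraries, 2 were fitted higher. Contractile smooth muscle markers summed to 13877 to 19317 CPM in the atorvastatin libraries, inside the WD range of 13659 to 28429 CPM. The part of these markers in the collagen values was not tested.

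With both drugs, 28 of 39 chains were fitted higher than with the diet alone (49% of all genes), and the median difference was 0.14 against −0.01 over all genes. The combination and WD libraries overlapped in all 39 chains, where 1.54% of all genes lay above and 1.75% below without overlap. No chain had an unadjusted p under 0.05 (1.47% of all genes), and DESeq2 and limma called 0 chains at an adjusted p of 0.05. The median was 0.01 without WD 2, 0.05 without COMBO 2, 0.22 without WD 1 and 0.21 without WD 3, and it was −0.0054 in limma with library weights. The number fitted lower, 11, was 18 without WD 2, 17 without COMBO 1 and 23 in limma, and the number at an unadjusted p under 0.05 was 3 without WD 1 and 1 without COMBO 1. With library totals the median was 0.28, where that of all genes was 0.18. With 2 libraries in the group, 1 library decides much of each value.

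**Figure D5:**
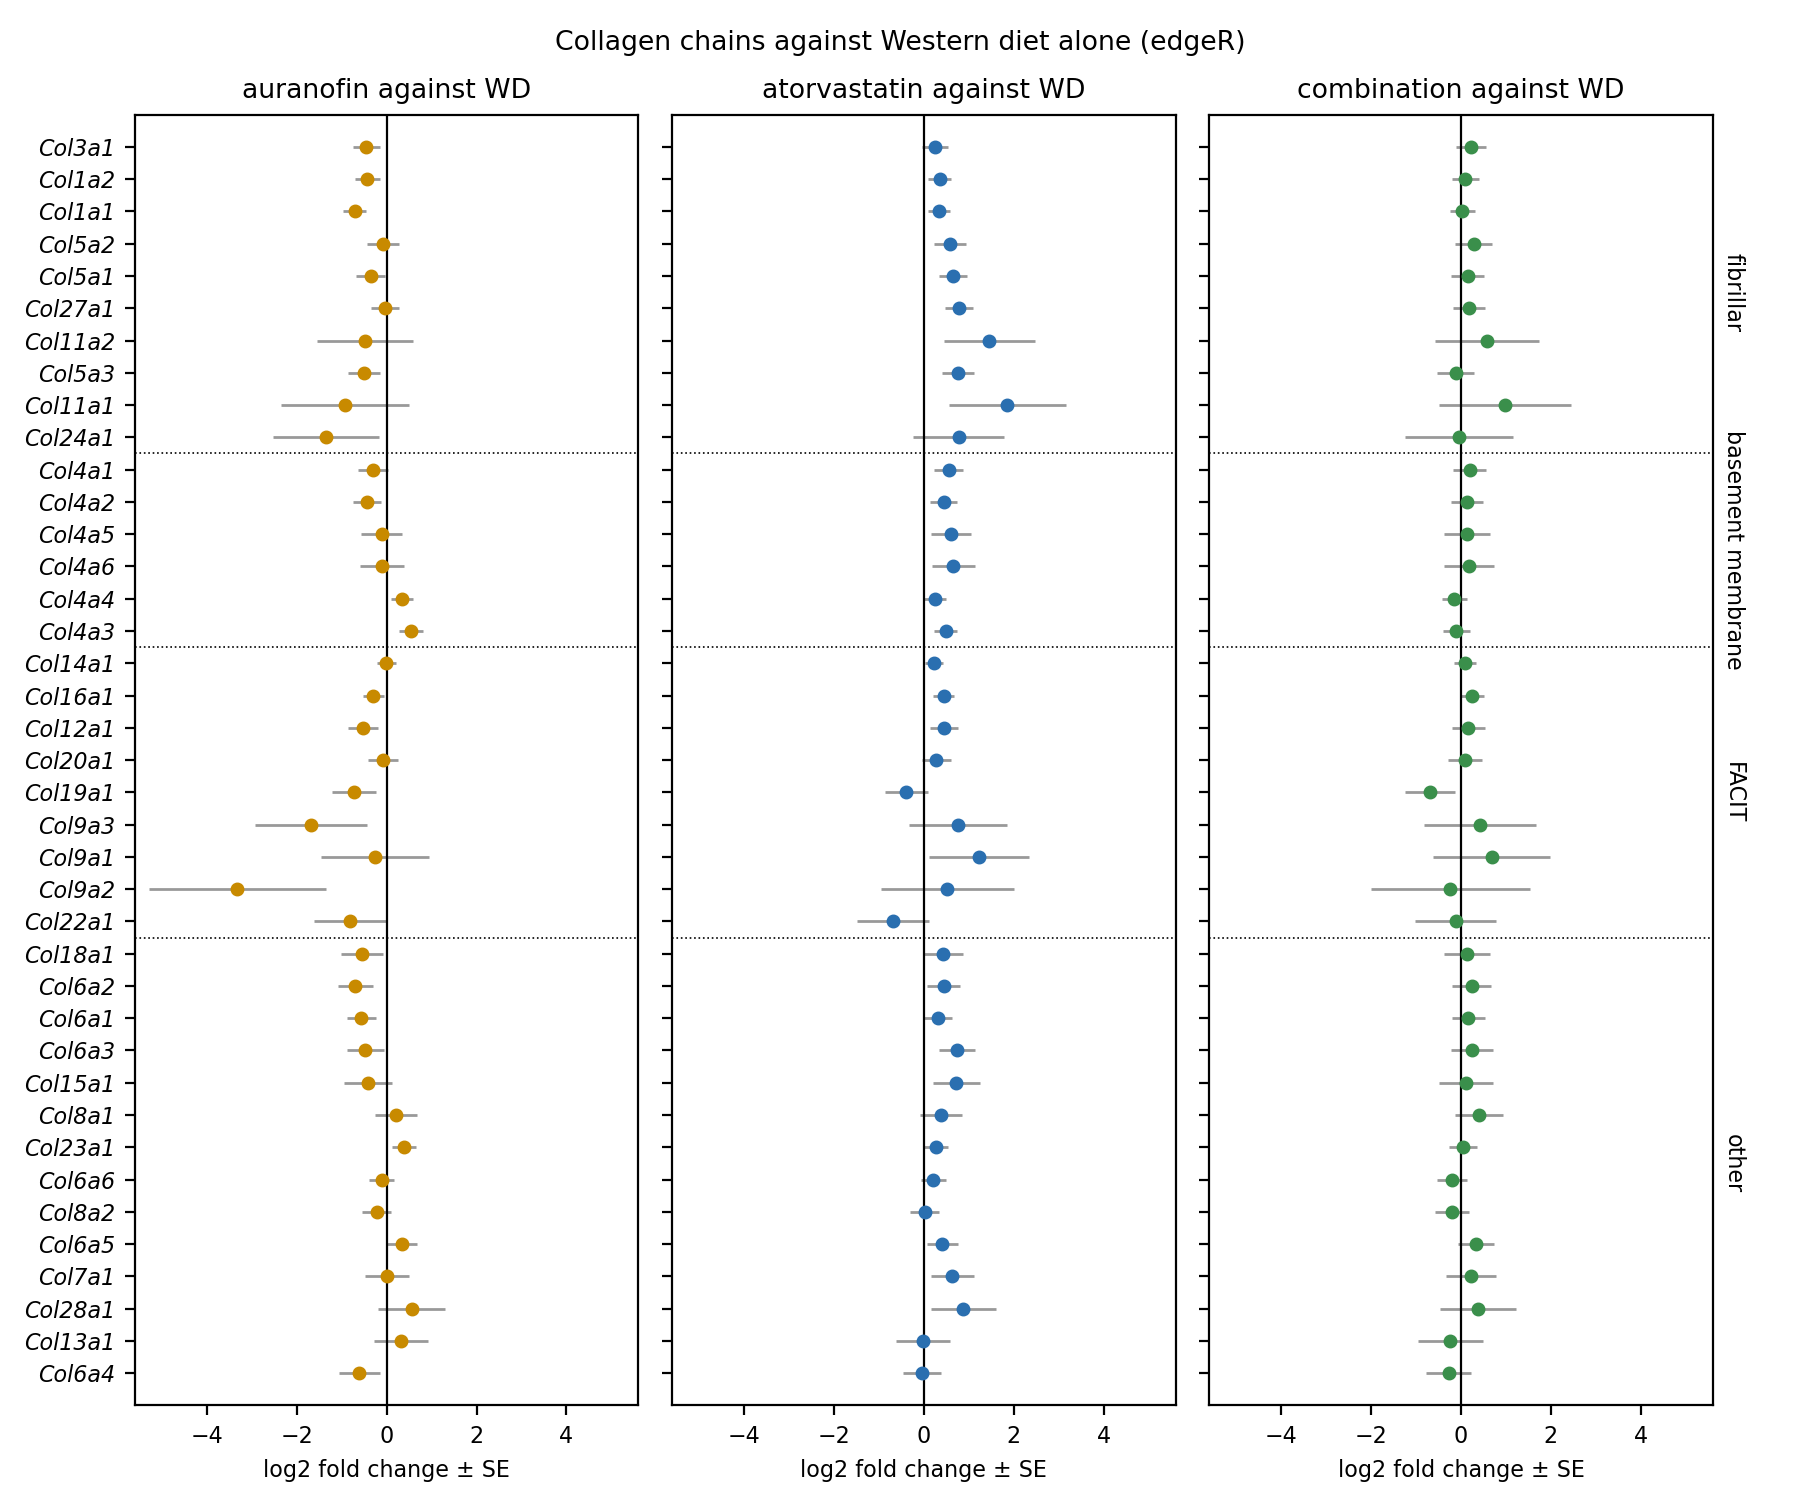
Fitted log2 fold change with its SE for each of the 39 tested collagen chains, by class, for auranofin, atorvastatin and the combination, each against the same 5 WD libraries. With auranofin all 10 fibrillar chains lie below 0, with atorvastatin all 10 lie above 0, and the SE reaches 0 for 19 of 39 chains with auranofin, 13 with atorvastatin and 38 with both drugs.

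The widest separation of the family was between the 2 single-drug groups. In auranofin against atorvastatin, 35 of 39 chains were fitted lower and 4 higher (50.1% of all genes were fitted higher), with a median of −0.77 against 0.00 over all genes. Col1a1 differed by −1.06 (SE 0.27), with an unadjusted p of 0.00211 and a Benjamini-Hochberg adjusted p of 0.826 in edgeR. DESeq2 called this collagen chain, and no other, at −1.05 (SE 0.22) with an adjusted p of 0.0119, so the call depends on the tool. Over all genes DESeq2 called 5 in this comparison and edgeR 0. Chains with an unadjusted p under 0.05 in edgeR were 12 of 39, all lower with auranofin, where 4.4% of all genes had such a p and 2.33% were lower with such a p. They were the type I chains Col1a1 and Col1a2, the type V chains Col5a1 and Col5a3, Col27a1, Col4a1, Col4a2, Col6a1, Col6a2, Col6a3, Col12a1 and Col16a1. Among these, Col5a3 differed by −1.26 (SE 0.40), Col6a3 by −1.22 (SE 0.46), Col5a1 by −1.01 (SE 0.37) and Col16a1 by −0.74 (SE 0.26).

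In 15 of the 39 chains all 3 auranofin libraries lay below all 3 atorvastatin libraries (7.63% of all genes), and in 0 chains all lay above (5.91% of all genes). These 15 were the 12 chains just named with Col3a1, Col18a1 and Col20a1. Some gaps were narrow: Col3a1 was at 1823 CPM in AUR 3 and 1829 CPM in ATV 3, and Col1a2 at 1447 and 1459.8 CPM. Counts of separated libraries were made on the TMM scale only. The number at an unadjusted p under 0.05 was 3 without AUR 2, 3 without ATV 1, 6 without ATV 2 and 5 with library totals in place of TMM, while it was 16 in DESeq2 and 16 in limma. The share of all genes with such a p was counted in the main fit only. The number fitted higher, 4, was 7 without ATV 2. Beside these values, brown adipocyte markers summed to 1191, 2627 and 475 CPM with auranofin and 382, 643 and 676 CPM with atorvastatin, with 7 of 7 fitted higher with auranofin, and endothelial markers to 1007, 2561 and 791 CPM and 741, 853 and 910.3 CPM, with 7 of 8 fitted higher. Contractile smooth muscle markers summed to 15805, 6237 and 16384 CPM and 19317, 13877 and 18492 CPM, with 1 of 10 fitted higher. Genes listed for modulated smooth muscle summed to 2732, 4265 and 4183 CPM and 6120.2, 7642 and 3176 CPM, with 3 of 7 fitted higher. That list is not specific: it shares Ly6a with the fibroblast list and Fn1 with the fibril assembly list. Its WD sums were 6985, 6576, 2869, 5358 and 1916 CPM, beside 2445, 3884, 285, 1849 and 408 CPM for macrophage markers. The part of any of these markers in the collagen values was not tested. With library totals the median of the family was −0.96 and that of all genes −0.27.

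Against auranofin alone, the combination had 32 of 39 chains fitted higher (51.5% of all genes), with a median of 0.49. The only chain with an unadjusted p under 0.05 was Col1a1, 1 of 39 chains, at 0.74 (SE 0.30), where 1.99% of all genes had such a p and 1.07% were higher with such a p. Both combination libraries lay above all 3 auranofin libraries in 9 chains (7.15% of all genes), among them Col3a1, Col1a1, Col4a2 and the type VI chains Col6a1, Col6a2 and Col6a3. They lay below in 2 chains, Col4a3 and Col4a4 (6.34% of all genes). The median was 0.27 without AUR 2 and 0.31 without COMBO 2, and it was 0.67 with 36 chains fitted higher when library totals were used, where the median of all genes was 0.30. The number at an unadjusted p under 0.05 was 6 without WD 2 or AUR 3 and 0 without AUR 1, AUR 2 or COMBO 1. Against atorvastatin alone, 37 of 39 chains were fitted lower and 2 higher (52.4% of all genes were fitted higher), with a median of −0.32, and 0 chains had an unadjusted p under 0.05 (1.31% of all genes). The combination libraries lay below the atorvastatin libraries in 10 chains (10.9% of all genes), which included all 6 type IV chains along with Col5a1, Col27a1, Col5a3 and Col23a1. They lay above in 1 chain, Col22a1 (8.4% of all genes). The number fitted higher in this comparison, 2, was 11 without ATV 2 and 7 without COMBO 1 or COMBO 2, and the median was −0.20 without ATV 2. The number at an unadjusted p under 0.05 was 1 without WD 2, WD 5 or COMBO 2, and limma gave 3.

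Fitted as 2 drugs that each add an effect, the atorvastatin term was positive for 35 of 39 chains (50.4% of all genes) with a median of 0.48. The auranofin term was positive for 7 of 39 chains (44.6% of all genes) and negative for 32, with a median of −0.32. For atorvastatin, 10 chains had an unadjusted p under 0.05, all higher, where 7.08% of all genes had such a p and 2.84% were higher with such a p. Col1a1 differed by 0.50 (SE 0.19), Col16a1 by 0.48 (SE 0.18), Col5a1 by 0.60 (SE 0.24) and Col6a3 by 0.74 (SE 0.30), and the adjusted p of Col1a1 was 0.546 in edgeR. The count was 18 without WD 1, 2 without ATV 2, 3 without ATV 1 and between 4 and 6 without WD 2, WD 4, WD 5, AUR 1, AUR 2, COMBO 1 or COMBO 2. With library totals it was 3, with 39 chains fitted positive, a family median of 0.64 and a median of all genes of 0.22. For auranofin, 2 chains had an unadjusted p under 0.05, both lower, where 2.69% of all genes had such a p and 0.798% were lower with such a p. The number was 4 without WD 2 or AUR 3, 9 in limma, 0 with library totals and 1 without WD 1, WD 3, WD 4, AUR 1, ATV 2, ATV 3, COMBO 1 or COMBO 2. The 2 chains were Col1a1 at −0.56 (SE 0.19) and Col5a3 at −0.65 (SE 0.28). The same 2 chains were the ones with an unadjusted p under 0.05 in the joint test of the 4 groups (3.04% of all genes), which gave 0.0163 for Col1a1 and 0.0401 for Col5a3. In that test the number of chains was 7 without WD 1, 4 without WD 2, 1 without ATV 2 and 0 without AUR 1 or AUR 2. Under the alternatives other than leaving out 1 library it was between 0 and 11. The joint test in DESeq2 gave Col1a1 an adjusted p of 0.0566.

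Collagen chains pass through a chain of helpers before they form fibres, and these were taken from lists of genes chosen by function. In the endoplasmic reticulum, enzymes hydroxylate prolines and lysines and chaperones hold the chains while they fold. Of 18 tested genes of folding and hydroxylation, 14 were fitted lower and 4 higher with auranofin, with a median of −0.35, and 4 had an unadjusted p under 0.05, all lower. Over all genes 46.4% were fitted higher, the median was −0.04, 6.5% had an unadjusted p under 0.05 and 3.79% were lower with such a p. P3h4, a partner of lysine hydroxylation, differed by −0.80 (SE 0.26) and Fkbp10, a folding enzyme of type I procollagen, by −0.65 (SE 0.24). With atorvastatin 10 were fitted higher and 8 lower, with a median of 0.04, where 49.2% of all genes were fitted higher with a median of −0.01. With both drugs 9 were fitted higher and 9 lower, with a median of 0.01.

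Of 12 tested genes of secretion and propeptide removal, 8 were fitted lower and 4 higher with auranofin (46.4% of all genes were fitted higher), with a median of −0.13 against −0.04 over all genes. Creb3l1, a membrane-bound transcription factor that turns on secretory cargo genes including procollagen, was at 42.2, 31.3, 42.1, 38.4 and 37.5 CPM in the WD libraries, 22.1, 24.6 and 28.1 CPM with auranofin, 45.0, 45.5 and 42.0 CPM with atorvastatin and 38.4 and 31.8 CPM with both drugs. All 3 auranofin libraries were below all 5 WD libraries (1.32% of all genes were lower in this way), and also below the atorvastatin and combination libraries. It differed from WD by −0.62 (SE 0.16), with an unadjusted p of 0.00166 and an adjusted p of 0.671 in edgeR. Adamts2, the protease that removes the N-terminal propeptide of types I and III, was at 165, 138, 139, 144 and 150.0 CPM in the WD libraries, 95.9, 86.2 and 131 CPM with auranofin, 140.0, 154 and 135 CPM with atorvastatin and 164 and 128 CPM with both drugs. Its auranofin libraries also lay below all WD libraries, and the difference was −0.50 (SE 0.19). Both genes were named for their small p in this comparison, so these separations are not separate support. With atorvastatin, Adamts3, a related protease, differed by 1.36 (SE 0.46) and Pcolce, an enhancer of C-propeptide removal, by −0.50 (SE 0.23).

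Of 15 genes of fibril assembly and cross-linking, 14 were fitted lower and 1 higher with auranofin (46.4% of all genes were fitted higher), with a median of −0.40 against −0.04 over all genes. With atorvastatin 12 were fitted higher (49.2% of all genes), with a median of 0.18 against −0.01 over all genes. Fmod, a small proteoglycan of fibril surfaces, differed by −0.80 (SE 0.29) with auranofin, and Fn1, fibronectin, on which new fibrils assemble, by 0.86 (SE 0.40) with atorvastatin. Beside the same shares and medians of all genes, of 10 collagen receptors 5 were fitted higher and 5 lower with auranofin (median 0.04) and 9 higher with atorvastatin (median 0.39), where Ddr2, a receptor kinase for fibrillar collagen, differed by 0.70 (SE 0.37). Of 8 tested genes of collagen breakdown and uptake, 5 were fitted lower with auranofin (median −0.05), 5 higher with atorvastatin (median 0.29) and 8 higher with both drugs (median 0.29, where 49% of all genes were fitted higher with a median of −0.01), among them the gelatinase Mmp2 at 0.43 (SE 0.40). No gene of these 5 lists passed an adjusted p of 0.05 in edgeR in a comparison with WD.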

How the data were processed

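RNA from whole aortas was made into non-stranded poly-A libraries and sequenced on DNBseq, per the labels' protocols. The authors deposited counts per gene, not normalized; STAR 2.6.1d, featureCounts of Subread 1.6.3 and GRCm39 are named in the submitters' processing notes. Counts were tested in edgeR 4.0.16 (R 4.3.3) with TMM, filterByExpr, 1 mean per group over all 13 libraries, the quasi-likelihood test (two-sided) and Benjamini-Hochberg adjustment over 18055 genes. The 18055 genes held at least 99.9% of the counts of each library. SEs were taken from the log2 fold change and its F statistic. DESeq2 1.42.0 and limma 3.58.1 with library weights were alternatives, along with other scalings, filters, groups fitted alone, a replicate block and leaving out each library. The self-test on simulated data was run before the fits. A count of 0 was given the limit of 3 counts. The members, lists and tests were chosen with earlier results of these data known. Values in every library are given for the 3 chains with the highest mean level per class and the 2 chains with the smallest p per direction in each comparison with WD, others being chosen after their values were seen; of each pathway list, genes named are among the 2 with the smallest p. Sequences are RefSeq's for GRCm38.p6 and gene starts and exon lengths GENCODE M21's, an older build than the counts. A chi-squared of 17.1 per degree of freedom was the smallest between any 2 of the 13 libraries, and each library was counted as 1 sample.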

Additional observations from a re-analysis of the deposited data

Results flagged for a closer look

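Among the 5 WD libraries, 8 of 58 values checked (39 chains and the sums and ratios described) held a library whose gap to the nearest other was more than 0.71 of the group's whole range. Chance gives this in about 1 in 20 groups of normally distributed values, and the chains share libraries. The check used values without a log, so for rare chains with skewed values the rate can be higher. WD 1 was high for each chain of types IX and XI: Col11a2 was at 28.3 CPM against 0.601 to 6.47 CPM in the other 4 (gap 0.788 of the range), Col11a1 at 9.56 CPM against 0 to 1.94 CPM (0.797; the 0 counts of WD 2 allow up to 0.180 CPM), Col9a3 at 6.69 CPM against 0.0507 to 1.61 CPM (0.766), Col9a1 at 3.54 CPM against 0.0409 to 0.511 CPM (0.866) and Col9a2 at 5.44 CPM against 0 to 0.256 CPM (0.953; the 0 counts of WD 5 allow up to 0.152 CPM). The cartilage markers were highest of the WD group in WD 1, at 324 CPM.

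Col12a1 in WD 5 was at 10.5 CPM against 23.8 to 28.7 CPM in the other 4 (gap 0.730 of the range). Col20a1 in WD 2 was at 1.38 CPM against 4.13 to 5.07 CPM (0.744). The ratio of Col4a4 to Col4a3 in WD 5 was 2.74 against 1.49 to 1.75 (0.792).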

How the results depend on the processing

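The count of collagen chains past an adjusted p of 0.05 was 0 in each comparison under each alternative, except that DESeq2 called 1 chain in auranofin against atorvastatin. Over all genes, the alternatives called at most 65 in a comparison, in the joint test of the 4 groups. Shares of all genes at an unadjusted p under 0.05 were counted in the main fit only. Counts of chains at such a p under an alternative therefore cannot show whether the chains or all genes moved. Of 1034 alternative values for 45 differences of named chains, 993 kept their sign and 41 turned, in 15 of the 45.

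In limma with library weights, the median of chains in the combination against WD was −0.0054, and the following differences turned: with both drugs, Col1a2 (−0.0168), Col1a1 (−0.0244), Col4a5 (−0.0329), Col14a1 (−0.0725), Col18a1 (−0.00459), Col6a1 (−0.000906) and Col19a1 (0.0629); with auranofin, Col23a1 (−0.11); with atorvastatin, Col19a1 (0.12). Without WD 2 and AUR 2, chosen after seeing the data, Col4a5 (0.14) and Col23a1 (−0.00535) turned with auranofin, and Col4a5 (−0.0480) and Col18a1 (−0.0621) with both drugs. Col14a1 with auranofin was 0.00605 with DESeq2 size factors, 0.00438 with the groups alone and 0.00575 in DESeq2.

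Leaving out 1 library at a time gave, with auranofin, −0.45 to 0.31 for Col4a5, −0.0837 to 0.0632 for Col14a1 and −0.00469 to 0.60 for Col23a1; with atorvastatin, −0.66 to 0.0178 for Col19a1; with both drugs, −0.0303 to 0.22 for Col1a2, −0.0415 to 0.0837 for Col1a1, −0.0556 to 0.35 for Col4a5, −0.0875 to 0.37 for Col12a1, −0.26 to 0.43 for Col18a1, −0.0359 to 0.47 for Col6a2, −0.0409 to 0.34 for Col6a1 and −0.73 to 0.94 for Col6a5. The cause was not tested.

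Replicate numbers were treated as names in the main fit. Of 15 same-numbered pairs of libraries, 7 had a correlation of deviations over 0.1 (range −0.34 to 0.49). Pairs with different numbers ranged from −0.57 to 0.57, so these correlations cannot show whether the numbers pair the libraries. With the replicate block, 0 chains were called, the family medians were −0.31, 0.51 and 0.12 for auranofin, atorvastatin and both drugs, and Col14a1 with auranofin (0.000936), Col22a1 with atorvastatin (0.51) and Col1a1 (−0.0357) and Col12a1 (−0.0583) with both drugs turned sign. Chains under 3 counts in a library are limited by depth, at 0.107 to 0.197 CPM.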
